A study of Mus musculus with 9 samples.

Results

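The nuclear genes for the subunits of respiratory complexes III and IV and of the ATP synthase, complex V, were compared between the forebrain of mouse embryos with 1 or 2 intact copies of *Npas3*. Members were chosen by name alone: every gene of the count table whose symbol starts with *Uqcr* or *Atp5* or has the form of a *Cox4* to *Cox8* subunit, together with *Cyc1*. Of 54 rows with such a name, 8 are named as pseudogenes and 6 had a summed count under 90 over the 9 embryos. The remaining 40 genes, of 55401 in the table, were the members, with 9 in complex III, 14 in complex IV and 17 in complex V. The member nearest to that limit was *Cox7a1*, with a summed count of 178, and the gene nearest below it was *Cox6c2*, with 43. The 5 other rows below it were *Cox7b2*, *Cox6a2*, *Cox8c*, *Cox8b* and a further row named *Atp5o*, with summed counts of 22, 16, 1, 0 and 0. All 40 members passed edgeR's filter on low counts. They lie on 18 chromosomes.

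Complex III passes electrons from ubiquinol to cytochrome c, complex IV passes them on to oxygen, and both pump protons out of the mitochondrial matrix. Complex V lets the protons return through a turning ring of c subunits and uses the turn to make ATP in its catalytic head. A few subunits that carry the electron or proton path are encoded in mitochondrial DNA, and all others, with every assembly factor, come from the nucleus. Some subunits of complex IV exist as a widespread isoform and an isoform typical of muscle, testis or lung. In the developing forebrain, these complexes supply ATP to progenitors and to young neurons, and the demand grows as neurons mature.

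RNA came from bulk forebrain of female embryos at E16 to E17. The 5 WT embryos were *Npas3*+/+ (written Npas+/+ in the labels), and the 4 HET embryos were *Npas3*+/−, which carry a constitutive deletion of 1 copy in all cells. Both groups were on the C57BL/6J background, and the WT embryos were littermates from the HET breeding. The labels name astrocytes as the cell type, but also state that whole forebrain tissue was taken. The samples are described here as bulk forebrain. In bulk tissue, fewer cells of a type and less RNA per cell cannot be told apart.

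Total counts were between 42640218 and 62830060 per embryo, and the 40 members took 0.463% to 0.581% of them. Levels are given in CPM, counts brought to a common library size with edgeR's TMM method. *Npas3* itself was at 40.8, 37.01, 38.3, 29.7 and 35.4 CPM in WT embryos 5, 43, 41, 16 and 15 and at 34.1, 28.2, 27.9 and 27.8 CPM in HET embryos 7, 6, 5 and 24. All per-embryo values below follow this order of embryos. HET embryo 7 lay within the WT range, so the groups overlapped. The log2 fold change of *Npas3* was −0.30 (SE 0.10), and edgeR's quasi-likelihood test gave an adjusted p of 0.877 (unadjusted p = 0.0134). The 8 astrocyte markers summed to 529 to 698 CPM. Among them, *Slc1a3*, *Slc1a2*, *Sox9* and *Gja1* had means of 275, 142, 88.4 and 85.4 CPM, *Aldh1l1* and *Gfap* of 16.7 and 8.80 CPM, and *Aqp4* and *S100b* of 1.03 and 0.197 CPM. The 8 markers of neurons summed to 4367 to 5016 CPM. *Ttr*, a marker of the choroid plexus, stood apart: WT embryos 41, 16 and 15 had 2127 to 2631 CPM, HET embryo 24 had 467 CPM and the other 5 embryos had 0.770 to 11.7 CPM.

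Which subunits were most abundant, and did they stand at like levels within a complex? Levels were divided by the exonic length of each gene in kb, because long genes collect more reads. This length counts every annotated exon of a gene, so the levels and their order depend on the annotation. In WT embryos the means of the 40 members ran from 0.807 CPM per kb for *Cox7a1* to 234 CPM per kb for *Cox6b1*. Of the 39 pairs of neighbours in this order, 35 had ranges over the 9 embryos that overlapped. Both genes of a pair were measured in the same embryos, so overlapping ranges do not tell whether their order held within each embryo. The steps without overlap were those below *Cox6a1*, *Atp5md*, *Atp5g1* and *Atp5l*.

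In complex III the highest level per length was that of *Uqcrh*, the acidic hinge protein at the cytochrome c docking site, with 126 ± 11.9 CPM per kb (SD, n = 5) in WT. The lowest was that of *Uqcrc1*, a core protein on the matrix side, with 23.1 ± 2.02 CPM per kb. Its annotation is the longest of complex III, 4135 bases, and its WT mean before this division was 95.6 CPM. The electron-carrying subunits *Uqcrfs1*, the Rieske iron-sulfur protein, and *Cyc1*, the cytochrome of this complex, lay between *Uqcrh* and *Uqcrc1* at 63.1 and 46.3 CPM per kb. In complex IV the 3 highest were *Cox6b1*, *Cox6a1* and *Cox4i1* at 234, 202 and 151 CPM per kb, all 3 the widespread isoform of their subunit. The 3 lowest were *Cox6b2*, *Cox4i2* and *Cox7a1* at 1.90, 0.886 and 0.807 CPM per kb, all 3 the isoform typical of another tissue.

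In complex V the highest was *Atp5b*, the catalytic beta subunit, at 226 ± 14.9 CPM per kb. *Atp5a1* and *Atp5c1*, the alpha and gamma subunits, followed at 125 and 120 CPM per kb. The lowest was *Atp5l*, a small membrane subunit of the dimer interface, at 1.63 ± 0.258 CPM per kb. *Atp5l* has the longest annotation of the members, 6443 exonic bases against 616 for *Atp5k*, and dividing by this length lowers its value. Of its 50-base words, 9.99% also occur in transcripts of other genes, 642 genes in all, so that its reads are among the harder ones to assign.

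**Figure D1:**
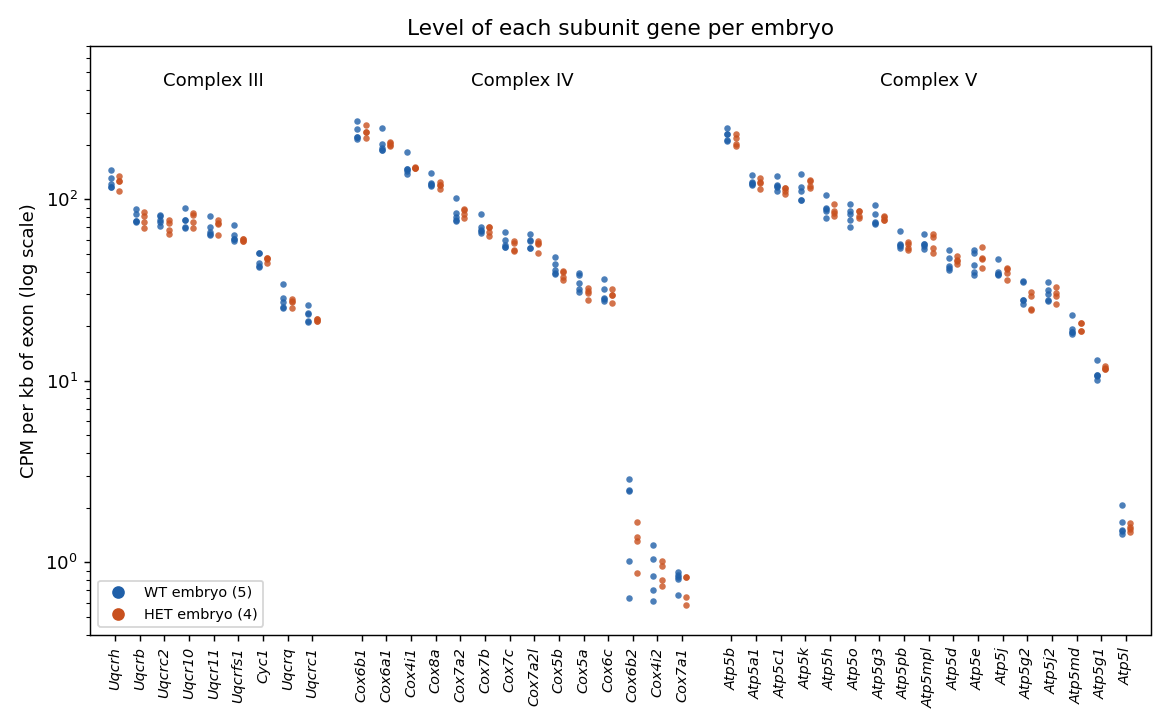
Level of each of the 40 subunit genes in every embryo, in CPM per kb of exon on a log axis, with WT embryos (5) in blue and HET embryos (4) in orange. Within each complex the genes are ordered by the WT mean, from *Uqcrh*, *Cox6b1* and *Atp5b* down to *Uqcrc1*, *Cox7a1* and *Atp5l*, and WT and HET points overlap for every gene.

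Did the subunit genes differ between HET and WT forebrain? In edgeR's quasi-likelihood test, with a threshold of 0.05 on the adjusted p, 0 of 40 members were called, beside 25 of all 17818 genes tested, a share of 0.14%. At an unadjusted p under 0.05 there was 1 member, *Cox5a*, beside 5.42% of all genes. DESeq2 and limma-voom also called 0 members, with 1 member each, again *Cox5a*, at an unadjusted p under 0.05. There were 0 members whose HET embryos all lay to one side of the WT embryos, beside 330 of all tested genes, or 1.85%.

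The HET mean lay below the WT mean in 28 of 40 members (70%), beside 51.5% of all tested genes. The median log2 fold change of the members was −0.036, against −0.0046 for all tested genes. By complex, 6 of 9 genes were lower in complex III with a median of −0.040, 12 of 14 in complex IV with a median of −0.055, and 10 of 17 in complex V with a median of −0.025. These members share embryos and vary together, so the counts are not counts of independent genes. Without WT embryo 16, whose levels are described below, 15 of 40 members (37.5%) were lower and the median was 0.026. By complex, 3 of 9, 8 of 14 and 4 of 17 were then lower, with medians of 0.020, −0.0052 and 0.032. Leaving out each of the other embryos gave 22 to 34 lower members.

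The precision of these fold changes was similar among the abundant members. For the 37 members other than the 3 tissue isoforms, standard errors were 0.063 to 0.118 and HET means were 87.4% to 108% of the WT means. Their 95% intervals reached from −0.41 (*Atp5g2*) to 0.33 (*Atp5e*) on the log2 scale, or from 75.5% to 126% of WT. These 37 genes had 403 to 56876 counts per embryo, and the coefficient of variation between embryos was 5.39% to 15.9% in WT and 0.749% to 11.4% in HET. It was lower in HET in 32 of the 37 genes with all embryos and in 16 of the 37 without WT embryo 16.

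**Figure D2:**
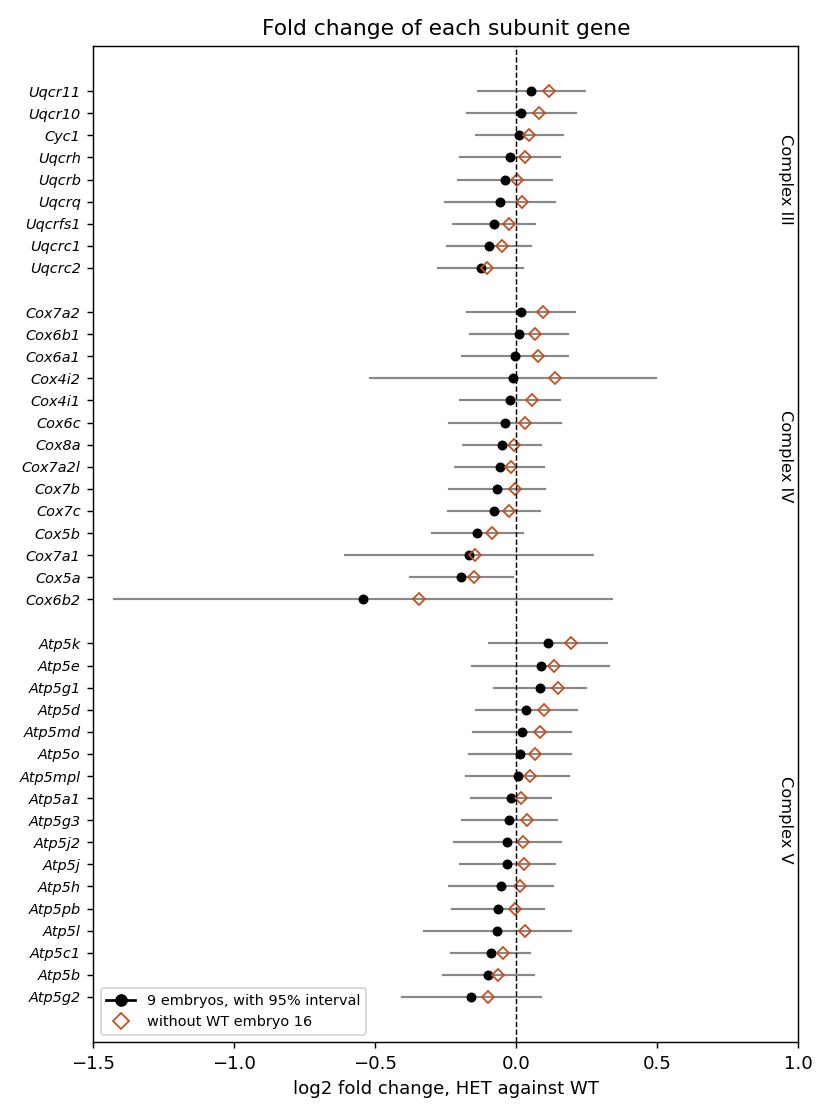
Log2 fold change of each subunit gene, HET against WT, from edgeR's quasi-likelihood fit. Black points and grey lines give the estimate over 9 embryos with its 95% interval, and open diamonds give the estimate without WT embryo 16. The interval of 1 gene, *Cox5a*, ends below 0, and every diamond lies to the right of its point.

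Among complex III genes the pair with the lowest p-values were the core proteins. *Uqcrc2* (ENSMUSG00000030884, chr7:120635176-120659524, plus strand) was at 183, 206, 196, 208 and 192 CPM in WT and at 174, 189, 196 and 164 CPM in HET embryos. HET embryos 7 and 24 were below the WT range, and the 2 others lay within it. The WT mean of 197 ± 10.6 CPM (SD, n = 5) stood against a HET mean of 181 ± 14.5 CPM (SD, n = 4), a log2 fold change of −0.13 (SE 0.069, unadjusted p = 0.0947, adjusted p = 0.911 from edgeR). Exons of *Pdzd9* on the opposite strand cover 19.7% of its exonic bases, so part of its count is uncertain.

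*Uqcrc1* (ENSMUSG00000025651, chr9:108936633-108949623, plus strand), the partner core protein, was at 96.7, 97.8, 86.9, 108 and 88.8 CPM in WT and at 88.3, 88.1, 90.9 and 90.4 CPM in HET embryos. The HET values were tightly grouped inside the lower part of the WT range. Its log2 fold change was −0.097 (SE 0.068, unadjusted p = 0.185, adjusted p = 0.911 from edgeR). *Uqcrh* was at 145, 162, 150, 179 and 145 CPM in WT and at 138, 166, 155 and 156 CPM in HET embryos, with HET embryo 7 the lowest of all and WT embryo 16 the highest. Its log2 fold change was −0.023 (SE 0.081). The other 6 members of complex III, with 40.5 to 109 CPM per embryo, had log2 fold changes of −0.079 for *Uqcrfs1* to 0.054 for *Uqcr11*, a small supernumerary subunit, and their smallest unadjusted p was 0.261.

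Among complex IV genes, *Cox5a*, *Cox5b*, *Cox6c* and *Cox7c* were grouped as the 4 subunits with a single gene. A row named *Cox6c2* exists as well, but its summed count of 43 was below the limit for members. All 4 genes of the group had a lower mean in HET, with a median log2 fold change of −0.11. Once WT embryo 16 was left out, 3 of the 4 were lower and the median was −0.057, with *Cox6c* at 0.032. The estimate for *Cox6c* was −0.039 (SE 0.090) over all embryos, 0.0037 without HET embryo 7 and 5e-04 in the embryos with *Ttr* under 100 CPM. *Cox5a* (ENSMUSG00000000088, chr9:57521274-57532426, plus strand), a subunit on the matrix side, was at 80.6, 72.3, 67.3, 82.4 and 64.9 CPM in WT and at 66.0, 58.7, 67.9 and 64.3 CPM in HET embryos. HET embryos 6 and 24 were below every WT embryo, while HET embryos 7 and 5 lay among the 3 lower WT embryos. The WT mean of 73.5 ± 7.80 CPM (SD, n = 5) stood against a HET mean of 64.2 ± 3.98 CPM (SD, n = 4), a log2 fold change of −0.19 (SE 0.084, 95% interval −0.38 to −0.010, unadjusted p = 0.0402, adjusted p = 0.911 from edgeR). Exons of the antisense gene *Gm26631* cover 12.8% of its exonic bases, and reads of that gene cannot be told from its own without strand.

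*Cox5b* (ENSMUSG00000061518, chr1:36691449-36693681, plus strand), a zinc-binding matrix subunit, was at 61.7, 69.7, 64.6, 76.0 and 62.6 CPM in WT and at 63.9, 59.2, 62.9 and 57.4 CPM in HET embryos. HET embryos 6 and 24 were again the lowest of all, and HET embryos 7 and 5 lay in the WT range. The log2 fold change was −0.14 (SE 0.074, unadjusted p = 0.0882, adjusted p = 0.911 from edgeR). Of its 50-base words, 11.9% also occur in *Gm11273*.

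The widespread isoforms differed little. *Cox4i1*, whose product belongs to the first assembly intermediates of the enzyme, was at 228, 226, 223, 283 and 213 CPM in WT and at 230, 234, 231 and 230 CPM in HET embryos. The HET embryos differed from each other by less than the WT embryos did, even with WT embryo 16 set aside. *Cox6a1* was at 141, 131, 134, 173 and 131 CPM in WT and at 140, 143, 146 and 138 CPM in HET embryos, so that all HET embryos were above WT embryos 43, 41 and 15, below WT embryo 16 and close to WT embryo 5. *Cox6b1*, the subunit that bridges the monomers on the outer face, was at 157, 172, 157, 191 and 153 CPM in WT and at 154, 181, 167 and 166 CPM in HET embryos. The log2 fold changes were −0.021 (SE 0.080) for *Cox4i1*, −0.0037 (SE 0.085) for *Cox6a1* and 0.0095 (SE 0.079) for *Cox6b1*, and the sign of that of *Cox6a1* turned with the scaling, at 0.0013 with DESeq2's size factors.

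*Cox7a2* was at 75.5, 79.1, 72.4, 95.6 and 71.8 CPM in WT and at 78.8, 83.1, 74.5 and 82.7 CPM in HET embryos, and all HET embryos lay within the WT range. *Cox8a* was at 75.9, 73.3, 75.0, 86.4 and 74.5 CPM in WT and at 70.9, 77.2, 74.6 and 74.5 CPM in HET embryos, with HET embryo 7 below all others. *Cox7a2l*, a relative of *Cox7a2* known as a factor for supercomplexes of complexes III and IV, was at 79.4, 88.7, 87.2, 95.5 and 80.0 CPM in WT and at 75.2, 86.8, 84.9 and 84.0 CPM in HET embryos. Which form of its product these embryos make was not examined, and no supercomplex was measured. HET embryo 7 was again the lowest, and the other HET embryos lay within the WT range. Log2 fold changes were 0.016 (SE 0.087) for *Cox7a2*, −0.051 (SE 0.063) for *Cox8a* and −0.059 (SE 0.072) for *Cox7a2l*.

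In complex V the catalytic head with its central stalk had 3 of 5 genes with a lower mean in HET, the c-ring 2 of 3, the peripheral stalk 3 of 4 and the small membrane subunits 2 of 5. These counts were 2 of 5, 1 of 3, 1 of 4 and 0 of 5 without WT embryo 16. *Atp5b* (ENSMUSG00000025393, chr10:128083273-128090391, plus strand) was at 972, 976, 896, 1044 and 893 CPM in WT and at 832, 924, 966 and 850 CPM in HET embryos. HET embryos 7 and 24 were below every WT embryo and the 2 others were within the WT range. Its log2 fold change was −0.099 (SE 0.074, unadjusted p = 0.209, adjusted p = 0.911 from edgeR).

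*Atp5c1* (ENSMUSG00000025781, chr2:10056016-10080510, minus strand), which encodes the rotating central stalk, was at 212, 229, 226, 255 and 222 CPM in WT and at 205, 222, 222 and 211 CPM in HET embryos. The HET embryos lay at the lower end of the WT values, with embryo 7 the lowest of all. The log2 fold change was −0.090 (SE 0.064, unadjusted p = 0.186, adjusted p = 0.911 from edgeR). *Atp5l* was at 9.69, 10.8, 9.202, 13.3 and 9.55 CPM in WT and at 10.2, 9.90, 9.51 and 10.6 CPM in HET embryos, all of which lay within the WT range.

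The c-ring subunit is made from 3 genes whose mature proteins are alike and whose import sequences differ. *Atp5g1* (chr11:96068852-96075670, minus strand) was at 49.9, 52.9, 52.4, 64.1 and 53.1 CPM in WT and at 57.7, 59.3, 56.8 and 57.2 CPM in HET embryos. The 4 HET embryos were above 4 WT embryos and below WT embryo 16. *Atp5g2* (chr15:102662864-102672352, minus strand) was at 46.7, 58.8, 44.4, 59.6 and 46.8 CPM in WT and at 41.8, 49.1, 51.6 and 41.2 CPM in HET embryos. HET embryos 7 and 24 were the lowest of all, and the other HET embryos fell between the WT values.

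*Atp5g3* (chr2:73908447-73911326, minus strand), the most abundant of the 3, was at 182, 162, 165, 204 and 159 CPM in WT and at 168, 176, 169 and 173 CPM in HET embryos, all of them within the WT range. Log2 fold changes were 0.084 (SE 0.074) for *Atp5g1*, −0.16 (SE 0.11) for *Atp5g2* and −0.025 (SE 0.077) for *Atp5g3*, with unadjusted p-values of 0.281, 0.182 and 0.756 from edgeR. Of the 50-base words of *Atp5g2*, 38.3% also occur in the genes *Gm10175*, *Gm10231* and *Mir688*, and 11.1% of those of *Atp5g1* occur in other genes, so that both counts are uncertain, while *Atp5g3* has no such word.

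The member with the highest positive log2 fold change was *Atp5k*, a small membrane subunit of the dimer interface, which is named here after its values were seen. It was at 68.6, 71.9, 61.0, 84.6 and 61.2 CPM in WT and at 72.6, 77.9, 71.3 and 78.4 CPM in HET embryos. HET embryos lay above 3 to 4 WT embryos and below WT embryo 16. Over all 9 embryos the log2 fold change was 0.11 (SE 0.095, unadjusted p = 0.263, adjusted p = 0.912 from edgeR). Without WT embryo 16 it was 0.19 (unadjusted p = 0.0228, adjusted p = 0.979 from edgeR), and that of *Atp5g1* was 0.15 (unadjusted p = 0.0125, adjusted p = 0.946). These were the 2 members at an unadjusted p under 0.05 in that fit.

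WT embryo 16 had the highest level of all 9 embryos in 37 of the 40 members, or 92.5%, whereas it was the highest in 18.6% of all genes tested. The 3 exceptions were *Cox7a1*, *Atp5mpl* and *Atp5e*, highest in WT embryo 41, HET embryo 6 and HET embryo 24. All 40 members were above the mean of the other WT embryos in WT embryo 16, with a median deviation of 0.27 on the log2 scale and a range from 0.10 for *Uqcrc2* to 1.03 for *Cox6b2*. The median over all tested genes was −0.0041. At the other end, HET embryo 7 was the lowest of all for 14 members (35%, beside 13.5% of all tested genes).

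Transcript length and cell type markers were set beside the levels of this embryo. The members are short, with a median exonic length of 1631 bases against 3930 for all tested genes. Among the 2673 tested genes of at most that median length, the median deviation of WT embryo 16 was 0.15 and it was the highest embryo in 28.4% of them. The 6 blood markers summed to 567 CPM in WT embryo 16, 208 to 472 CPM in the other WT embryos and 378 to 442 CPM in HET embryos. The 472 CPM were those of WT embryo 15, the lowest embryo for 9 members. The choroid plexus markers summed to 2356 CPM in WT embryo 16, to 2910 and 2835 CPM in WT embryos 41 and 15 and to 27.5 to 535 CPM in HET embryos. The astrocyte markers summed to 529 CPM in WT embryo 16, the lowest of all embryos. The part of length, blood RNA, choroid plexus RNA or astrocyte RNA in these levels was not tested.

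**Figure D3:**
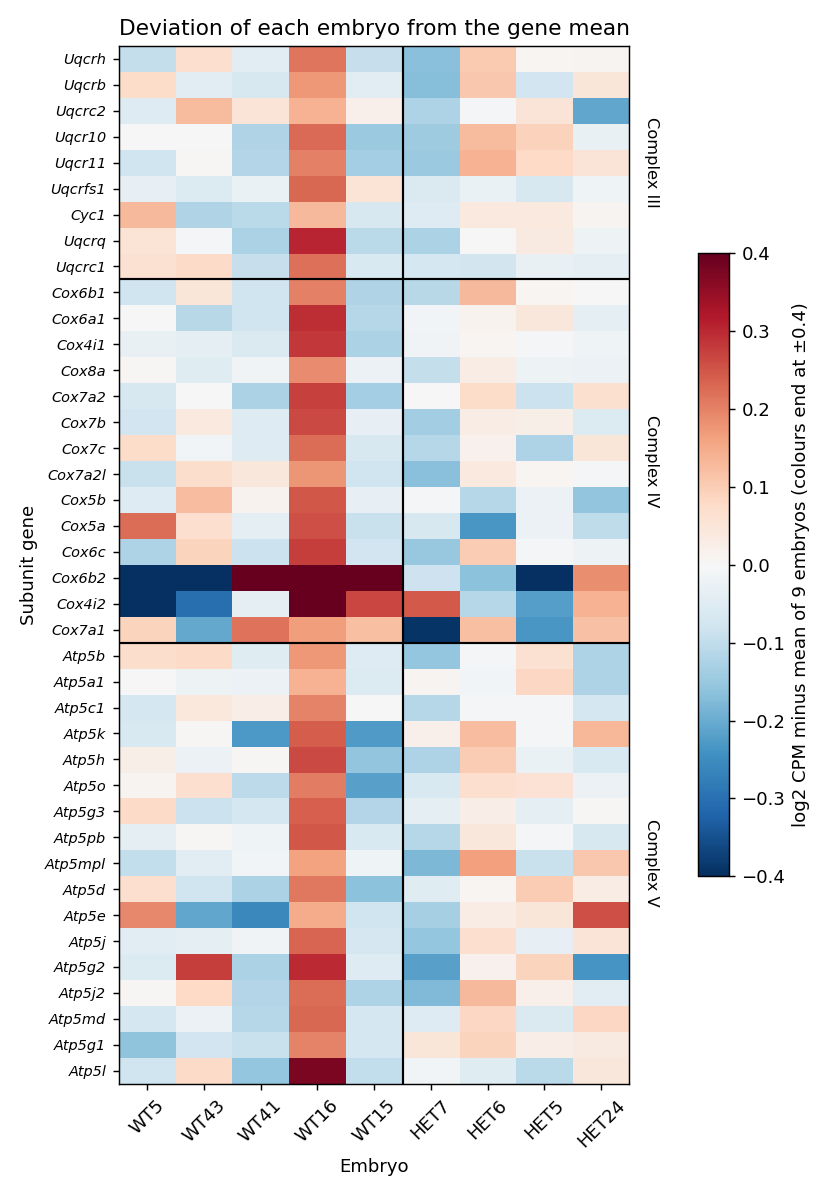
Log2 CPM of each subunit gene in each embryo, minus the mean of that gene over the 9 embryos, with red above and blue below the mean and colours ending at ±0.4. Genes are grouped by complex and embryos by genotype, and the column of WT embryo 16 is red throughout while that of HET embryo 7 is mostly blue.

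Averaged over its genes, complex III stood at 6.36, 6.35, 6.28, 6.55 and 6.28 log2 CPM in WT and at 6.23, 6.39, 6.36 and 6.33 in HET embryos. Complex IV stood at 5.02, 4.996, 5.13, 5.41 and 5.12 in WT and at 5.02, 5.10, 5.0015 and 5.11 in HET embryos. Complex V stood at 6.76, 6.77, 6.68, 6.99 and 6.67 in WT and at 6.68, 6.82, 6.78 and 6.77 in HET embryos. In all 3 complexes WT embryo 16 was the highest and the remaining WT embryos overlapped the HET embryos.

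The HET mean minus the WT mean was −0.035 in complex III, −0.078 in complex IV and −0.013 in complex V on the log2 scale, each smaller than the SD of the WT embryos (0.11, 0.17 and 0.13). Without WT embryo 16 these differences were 0.012, −0.0085 and 0.042. With the 3 tissue isoforms left out of complex IV, its difference was −0.053 with WT embryo 16 and 0.0026 without it.

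**Figure D4:**
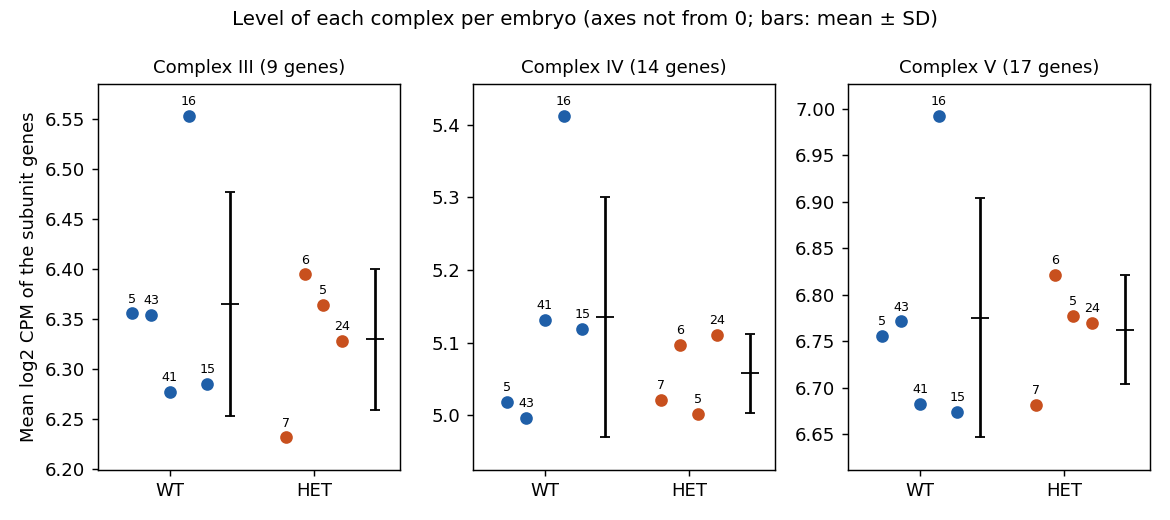
Mean log2 CPM of the subunit genes of each complex in every embryo, with embryo numbers beside the points and the mean ± SD of each group as a bar (WT n = 5, HET n = 4; axes do not start at 0). WT embryo 16, at 6.55, 5.41 and 6.99, is the highest in all 3 complexes, and the other WT embryos overlap the HET embryos.

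The members varied together across embryos. The mean of all pairwise correlations of log2 CPM was 0.58 over the 9 embryos, with 0.61 within complex III, 0.53 within complex IV and 0.61 within complex V, against 0.0019 for all tested genes. Without WT embryo 16 it was 0.21, with 0.27, 0.055 and 0.28 within the complexes. These are descriptions over 9 or 8 points that share libraries and scaling. Scaling brings the mean correlation over all tested genes close to 0, so that value is no reference for a set of similar genes. *Cox8a*, *Atp5pb* and *Atp5j* followed the mean of the other members most closely, with correlations of 0.97, 0.95 and 0.94, and *Cox6b2* least, with 0.26. Without WT embryo 16 the values were 0.82, 0.73 and 0.95 for the first 3 genes. For *Cox5b*, *Cox6b2*, *Cox4i2* and *Cox5a* they were −0.57, −0.53, −0.47 and −0.44.

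Were isoforms of other tissues present, and did the choice of isoform differ? Each isoform was set against its widespread partner per length within a library, which does not depend on how libraries are scaled. *Cox4i2*, the isoform known from lung and from low oxygen, was at 0.481, 0.552, 0.662, 0.979 and 0.818 CPM in WT and at 0.806, 0.629, 0.585 and 0.749 CPM in HET embryos. Every HET embryo lay within the WT range. Its level per length was 0.583% ± 0.140 of that of *Cox4i1* in WT (SD, n = 5) and 0.589% ± 0.0907 in HET (SD, n = 4; exact two-sided permutation test, p = 0.841).

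*Cox6b2*, the isoform known from testis, was at 1.13, 0.707, 2.76, 3.20 and 2.74 CPM in WT and at 1.53, 1.44, 0.974 and 1.84 CPM in HET embryos. WT embryos 41, 16 and 15 were the highest, with HET embryo 24 next, and these were the 4 embryos with *Ttr* above 100 CPM. The groups overlapped, because WT embryos 5 and 43 lay at the low end. Its log2 fold change was −0.54 (SE 0.40, unadjusted p = 0.202, adjusted p = 0.911 from edgeR). In a fit that also held a choroid plexus score its value was 0.15, and it was 0.52 when only the 5 embryos with low *Ttr* (2 WT, 3 HET) were used. Relative to *Cox6b1* it stood at 0.813% ± 0.419 in WT and 0.557% ± 0.148 in HET (exact two-sided permutation test, p = 0.476), a log2 difference of −0.37 that was 0.51 in those 5 embryos.

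*Cox7a1*, the heart and muscle isoform, was at 0.433, 0.353, 0.473, 0.457 and 0.442 CPM in WT and at 0.310, 0.442, 0.346 and 0.442 CPM in HET embryos, from 15 to 30 counts each. HET embryos 7 and 5 were the lowest of all, and the others lay within the WT range. It stood at 0.976% ± 0.156 of *Cox7a2* in WT and 0.849% ± 0.118 in HET (exact two-sided permutation test, p = 0.23). The muscle isoforms *Cox6a2* and *Cox8b* had 0 to 3 counts and 0 counts per embryo and were not tested. At 0 counts, up to 3 counts are allowed, a level of 0.0473 to 0.0722 CPM depending on the library. Of 8 muscle markers, 7 were under 1 CPM on average, and *Ckm* was at 0 to 0.0653 CPM. The muscle list summed to 3.48 to 5.29 CPM in WT and 3.49 to 5.38 CPM in HET embryos.

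*Cox7a2l* stood at 70.2% ± 4.94 of *Cox7a2* in WT and 66.4% ± 4.95 in HET (exact two-sided permutation test, p = 0.286). For the c-ring genes *Atp5g1*, *Atp5g2* and *Atp5g3*, the annotated exonic lengths were 4912, 1675 and 2181 bases. Their WT means before division by length were 54.5, 51.25 and 174 CPM, so the shares below depend on the annotation. *Atp5g1* made up 8.35%, 8.95%, 9.47%, 9.18% and 9.67% of the summed level per length of the 3 genes in WT and 10.3%, 9.90%, 9.67% and 10.1% in HET embryos. HET embryos 7, 6 and 24 were above all WT embryos, and HET embryo 5 was level with WT embryo 15. The means were 9.13% ± 0.512 in WT (SD, n = 5) and 9.99% ± 0.273 in HET (SD, n = 4), a log2 difference of 0.13. The exact two-sided permutation test gave p = 0.0238, or 0.19 after Benjamini-Hochberg adjustment over the 8 ratios tested, and the smallest p that it can give here is 0.00794.

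*Atp5g2* made up 25.1% ± 2.42 in WT and 23.2% ± 2.06 in HET, and *Atp5g3* 65.7% ± 2.51 and 66.8% ± 1.83 (exact two-sided permutation tests, p = 0.254 and p = 0.524). *Atpif1* (the count table uses this older symbol, which the name rule misses, for *Atp5if1*) encodes the inhibitor that blocks ATP hydrolysis by complex V. It was at 143, 150, 143, 176 and 135 CPM in WT and at 141, 172, 146 and 149 CPM in HET embryos, and all HET embryos lay within the WT range. Relative to *Atp5b*, per length, it stood at 43.3%, 45.1%, 46.7%, 49.4% and 44.4% in WT and at 49.7%, 54.7%, 44.4% and 51.7% in HET embryos, so that 3 HET embryos were above all WT embryos and HET embryo 5 was inside the WT range. Annotated lengths of 1441 bases for *Atpif1* and 4237 for *Atp5b* enter these percentages. The log2 difference was 0.13 (exact two-sided permutation test, p = 0.0952, adjusted 0.381). None of the 8 ratios passed the adjusted threshold of 0.05, and 1 of them, that of *Atp5g1*, had an unadjusted p under 0.05.

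The subunits encoded in mitochondrial DNA were seen only in part. *mt-Cytb*, the cytochrome b of complex III, was at 3391, 4265, 3842, 4183 and 4059 CPM in WT and at 3724, 3989, 4268 and 4230 CPM in HET embryos, with WT embryo 5 the lowest. Its log2 fold change was 0.038 (SE 0.083, adjusted p = 0.949 from edgeR). *mt-Co1*, the catalytic subunit of complex IV, had means of 6778 ± 432 CPM in WT and 6832 ± 293 CPM in HET. WT embryo 16 was not the highest embryo for either gene. *mt-Co2*, *mt-Co3*, *mt-Atp6* and *mt-Atp8* had 1 count in 1 embryo and 0 counts in the other 8, and were not tested. Of the 50-base words of *mt-Co2*, *mt-Co3* and *mt-Atp6*, 100%, 99.9% and 99.5% also occur in nuclear copies or other genes, against 0% for *mt-Cytb* and *mt-Atp8* and 51.1% for *mt-Co1*.

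Other genes of the same pathway were taken by list. Of all 17818 tested genes, edgeR called 0.14%, 5.42% had an unadjusted p under 0.05 and 51.5% were lower in HET. The counts of each list stand beside these shares. Of 6 assembly factors of complex III, edgeR called 0, 0 had an unadjusted p under 0.05 and 4 had a lower mean in HET. The lowest p was that of *Uqcc1*, which helps cytochrome b to be made and was at 46.7, 51.3, 47.3, 54.6 and 47.9 CPM in WT and at 45.8, 41.3, 50.5 and 47.8 CPM in HET embryos. HET embryos 7 and 6 were the lowest of all and the others lay within the WT range (log2 fold change −0.096, unadjusted p = 0.227 from edgeR).

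Of 5 assembly factors of complex V, edgeR called 0, 0 had an unadjusted p under 0.05 and 3 were lower. *Tmem70*, which helps to assemble the c-ring, was at 39.7, 39.2, 37.7, 44.4 and 38.7 CPM in WT and at 37.5, 35.8, 42.05 and 35.6 CPM in HET embryos. HET embryo 5 lay within the WT range and the other HET embryos were the lowest of all (log2 fold change −0.080, unadjusted p = 0.292 from edgeR). The median log2 fold changes of these lists were −0.035 for complex III and −0.0074 for complex V, and −0.0095 and 0.038 without WT embryo 16. *Ndufa4*, a subunit of complex IV that carries a complex I name, was at 131, 149, 142, 176 and 147 CPM in WT and at 133, 161, 145 and 143 CPM in HET embryos. *Cycs*, cytochrome c, was at 54.8, 53.7, 49.05, 63.5 and 52.4 CPM in WT and at 51.1, 59.8, 56.9 and 52.2 CPM in HET embryos, with means of 54.7 ± 5.38 and 55.0 ± 4.05 CPM. Both genes had WT embryo 16 as the highest embryo, and their log2 fold changes were −0.035 (SE 0.087) and 0.0082 (SE 0.082).

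Of 26 assembly and biogenesis factors of complex IV, 25 were tested, since *Pet117* had 0 counts. edgeR called 0 of them, 1 (*Lrpprc*) had an unadjusted p under 0.05, 19 of 25 had a lower mean in HET and their median log2 fold change was −0.049, against 15 of 25 and −0.023 without WT embryo 16. *Lrpprc*, which binds and stabilizes mitochondrial messenger RNAs, was at 81.0, 84.5, 87.5, 90 and 86.6 CPM in WT and at 74.8, 73.0, 77.5 and 77.9 CPM in HET embryos. All HET embryos were below all WT embryos. The log2 fold change was −0.18 (SE 0.053, unadjusted p = 0.00599, adjusted p = 0.702 from edgeR). *Coa5*, named here after its values were seen, was the only other gene of this list without overlap, with 94.9 to 101 CPM in WT and 85.8 to 94.4 CPM in HET embryos, and its unadjusted p was 0.0864. Non-overlap was found in 1.85% of all tested genes.

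Of 15 listed transcription factors and coactivators of respiratory genes, *Tfam* and *Tfb2m* among them, 0 were called and 8 were higher in HET, beside 8639 of all 17818 tested genes. The median log2 fold change of the list was 0.075, and 0.0021 without WT embryo 16. *Yy1*, a zinc-finger factor with sites in several respiratory promoters, was at 127, 102, 107, 103 and 110 CPM in WT and at 120, 126, 121 and 123 CPM in HET embryos. The HET embryos were above 4 WT embryos and below WT embryo 5. Its log2 fold change was 0.16 (SE 0.069, unadjusted p = 0.0421, adjusted p = 0.911 from edgeR). *Nrf1* and *Gabpa*, the factors best known for these promoters, had means of 59.6 and 57.4 CPM and of 95.3 and 90.3 CPM in WT and HET, with unadjusted p-values of 0.508 and 0.24.

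Because the members varied together and because the study searched promoters for the E-box that NPAS3 binds, the promoters were read. RefSeq promoter sequences on GRCm38.p6 were matched by symbol for 31 members, 5 of complex III, 11 of complex IV and 15 of complex V. The other 9 members had no entry and were not read. In 26 of the 31 the bases after the start lie in a GENCODE transcript of that gene. Some windows overlap GENCODE exons of the same gene, with 250 bases exonic in *Atp5j2* and *Atp5pb* and 234 in *Atp5d*. The 250 bases before the RefSeq start were searched on both strands for the core of the NRF1 site (CGCATGCG), the core of the GABPA site (CCGGAAG), the E-box (CANNTG) and the TATA box (TATAAA). For members the RefSeq start nearest the GENCODE start was taken, and for all promoters the first one listed for each symbol. The latter include genes that are not expressed here, so the shares are not strictly alike. The NRF1 core was found in 4 of 31 members (12.9%) and in 1.58% of all 27018 promoters. The GABPA core was in 7 (22.6%, against 7.05%), an E-box in 20 (64.5%, against 66.1%) and the TATA box in 2 (6.45%, against 13%). A match is a description of these letters and not a bound site.

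The NRF1 core occurred in *Cox6a1* and in 3 genes of complex V. These members are shown because they carry that core, printed in capitals, which reads the same on both strands. The stretches lie at chr15:102671070-102671099, chr5:108434430-108434459 and chr9:44920963-44920992, all on the minus strand, with the core starting 41, 49 and 241 bases before the start. Of their windows, 80, 49 and 0 bases are exonic in GENCODE, and the start used for *Atp5g2* lies inside its annotated gene.
Atp5g2: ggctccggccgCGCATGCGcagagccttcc
Atp5k: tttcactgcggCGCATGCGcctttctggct
Atp5l: aaccaataaCGCATGCGcatttcccccact

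The whole window of *Cox6a1* (chr5:115348959-115349208, minus strand) is shown because it holds the NRF1 core, in capitals 161 bases before the start, together with the GABPA core on the other strand near its end. Its last 23 bases are exonic in GENCODE.
Cox6a1: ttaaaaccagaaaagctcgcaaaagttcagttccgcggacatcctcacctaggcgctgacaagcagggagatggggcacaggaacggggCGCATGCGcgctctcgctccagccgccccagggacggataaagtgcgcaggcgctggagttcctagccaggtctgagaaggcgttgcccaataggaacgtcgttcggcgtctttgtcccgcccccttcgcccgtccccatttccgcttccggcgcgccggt

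The window of *Uqcrc1* (chr9:108936398-108936647, plus strand) is shown because it had 5 E-boxes, the most of the 31 members read. The median was 1 in these members and in all promoters. The E-boxes are in capitals, and the last 15 bases are exonic in GENCODE. Its values in each embryo are given above, with HET embryos at 88.1 to 90.9 CPM within a WT range of 86.9 to 108 CPM.
Uqcrc1: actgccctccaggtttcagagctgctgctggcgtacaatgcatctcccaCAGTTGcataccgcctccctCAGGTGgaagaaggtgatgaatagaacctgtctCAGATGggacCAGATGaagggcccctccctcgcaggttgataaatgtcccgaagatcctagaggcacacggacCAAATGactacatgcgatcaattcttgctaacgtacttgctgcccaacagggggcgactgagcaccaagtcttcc

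*Cox5a*, the member with the lowest p-value, had 0 E-boxes, 0 NRF1 cores and 0 GABPA cores in its 250 bases, and its RefSeq start is 1 of the 5 that do not lead into a GENCODE transcript. *Lrpprc* and *Yy1* are not members and their promoters were not read. The genes with the NRF1 core had log2 fold changes of −0.16 (SE 0.11) for *Atp5g2*, 0.11 (SE 0.095) for *Atp5k*, −0.067 (SE 0.12) for *Atp5l* and −0.0037 (SE 0.085) for *Cox6a1*. Whether these promoter letters bear on the fold changes was not tested.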

How the data were processed

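Forebrain RNA of 9 embryos was poly(A)-captured, made into TruSeq libraries and sequenced in pairs, of which the authors used a single read. Per the labels and the study's methods, the authors aligned reads to GRCm38.p6 with STAR (version 2.7.9a) and used featureCounts with GENCODE release M25 to assign them to genes. The authors deposited raw counts without normalization. Whether the counting used strand, and how it treated multi-mapped reads, is not given in the sources used here, which bears on members with pseudogene copies or antisense neighbours.

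Here, counts of 17818 genes that passed edgeR's filterByExpr (minimum count of 10) were scaled by TMM and tested over all 9 embryos, HET against WT, in edgeR's quasi-likelihood framework with no covariate, and p-values were adjusted by Benjamini-Hochberg over all tested genes (R 4.3.3, edgeR 4.0.16, limma 3.58.1, DESeq2 1.42.0). Embryos were grouped by genotype label. The labels number the embryos without naming litters, so p-values measure the spread between these embryos. No pair of embryos had identical counts, and 0 columns were left unmapped. The smallest level was set at 3 counts per library, which covers counting error only. The test was checked on simulated counts, in which 200 genes were given changes larger than the estimate for any member. That check does not cover changes of the size estimated for the members.

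The members and lists were chosen with earlier results of these data known, so no list was tested as a set. Named with the value in every embryo were, per complex, the 2 members with the lowest unadjusted p, those with the highest and lowest level per length, members called or without overlap, the genes of the isoform ratios, and the lowest p of each pathway list. Isoform ratios were tested by exact permutation of the embryos, two-sided. Lengths, coordinates and 50-base words came from GENCODE release M21 on GRCm38, and promoters from RefSeq on GRCm38.p6. Alternatives were DESeq2, limma-voom, DESeq2's size factors, upper-quartile scaling, no filter and a minimum count of 50, a choroid plexus score as covariate, embryos with *Ttr* under 100 CPM, removal of the gene length trend, and leaving out each embryo.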

Additional observations from a re-analysis of the deposited data

Results flagged for a closer look

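In 9 of 102 group values examined, 1 embryo lay farther from the rest of its group than Dixon's 95% limit, against 5.1 that chance gives, and in all 9 it was WT embryo 16. Among complex V genes it was at 429 CPM for *Atp5a1* (other WT embryos 375 to 389), 64.1 CPM for *Atp5g1* (49.9 to 53.1), 147 CPM for *Atp5j* (120 to 124), 63.3 CPM for *Atp5md* (49.8 to 53.0) and 276 CPM for *Atp5pb* (223 to 233). Among complex IV genes it was at 283 CPM for *Cox4i1* (213 to 228), 173 CPM for *Cox6a1* (131 to 141) and 86.4 CPM for *Cox8a* (73.3 to 75.9). The mean of the complex III genes was 6.55 log2 CPM in this embryo and 6.28 to 6.36 in the other WT embryos. The genes share this library, so the 9 values are not independent.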

How the results depend on the processing

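All 18 alternatives called 0 of the 40 members, and over them the count of members with a lower HET mean was 24 to 29 except when an embryo was left out, when it was 15 (without WT embryo 16) to 34 (without WT embryo 41). Members at an unadjusted p under 0.05 numbered 0 with the length trend removed and 0 to 2 when an embryo was left out. The median log2 fold change of all members was −0.061 to 0.026 when an embryo was left out. DESeq2 called 24 genes higher and 62 lower among all genes, against 5 and 20 in edgeR, with 0 members in both. No paired analysis was possible because the groups share only 1 embryo number, which the labels do not tie to a litter.

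For 30 named genes, 493 of 538 alternative values had the direction of the main estimate. Within embryos with *Ttr* under 100 CPM, log2 fold changes turned to 0.030 for *Cox4i1*, 0.38 for *Cox4i2*, 0.071 for *Cox6a1*, 0.52 for *Cox6b2* and 0.063 for *Ndufa4*, and the log2 ratio of *Cox6b2* to *Cox6b1* to 0.51. With the choroid plexus score they turned to 0.22 for *Cox4i2*, 0.013 for *Cox6a1*, 0.15 for *Cox6b2* and −0.0069 for *Cycs*. With the length trend removed they turned to 0.0028 for *Cox4i1* and 0.0020 for *Cox6a1*, with limma-voom to 0.023 for *Cox4i2* and 0.0045 for *Cox6a1*, and for *Cox6a1* to 0.0013 with DESeq2 and with its size factors and to 7e-04 at a minimum count of 50. Leaving out 1 embryo, the log2 fold change ranged from −0.058 to 0.032 for *Uqcrh*, −0.029 to 0.066 for *Cox6b1*, −0.11 to 0.032 for *Atp5l*, −0.052 to 0.056 for *Cox4i1*, −0.11 to 0.14 for *Cox4i2*, −0.031 to 0.079 for *Cox6a1*, −0.014 to 0.095 for *Cox7a2*, −0.054 to 0.038 for *Atp5g3*, −0.033 to 0.093 for *Atpif1*, −0.082 to 0.033 for *Ndufa4*, −0.030 to 0.068 for *Cycs* and −0.012 to 0.078 for *mt-Cytb*, and the log2 ratio of *Cox4i2* to *Cox4i1* from −0.078 to 0.14. None of these values was past the adjusted threshold, and the cause was not tested. The share of *Atp5g1* kept its direction, with a log2 difference of 0.10 to 0.15 and exact permutation p-values of 0.0286 to 0.0714 when 1 embryo was left out. With fewer embryos the smallest p that this test can give is above 0.00794, so these p-values cannot be graded against that of all embryos. The smallest adjusted p of any ratio was 0.143. The 3 tissue isoforms had 15 to 175 counts per embryo and standard errors of 0.20 for *Cox7a1*, 0.23 for *Cox4i2* and 0.40 for *Cox6b2*, the last with the most counts of the 3. The cause of that spread was not tested.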
